A study of Caenorhabditis elegans with 4 samples.

Results

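Chromosome IV carried 805 of the 4794 LIN-35::GFP peaks in the combined list of the series, 16.8% of them, on a span of 17.5 Mb that makes up 17.4% of the nuclear genome covered by the lists. The sites are every entry of the combined list on IV, so that no score or rank decided which sites were included. Hermaphrodites of strain YL409 were collected as fed L1 larvae at 20 °C. They carry the mutation unc-119(ed3) III and the transgene vrIs60, in which LIN-35 with a GFP and a FLAG tag is expressed from the lin-35 promoter with a dpl-1 3′ UTR and an unc-119 rescue. ChIP and input samples share this genotype, and the strain is a single transgenic line with 0 outcrosses recorded. The 2 ChIP samples were precipitated with antibodies against GFP from chromatin fixed in 2% formaldehyde. The 2 input samples enter with no peak list. The labels do not say whether the replicates came from separate cultures, and no peak list from worms without the transgene was used here.

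LIN-35 is the worm's pocket protein, the relative of mammalian Rb, p107 and p130. It works in the DREAM complex, in which EFL-1 and DPL-1 (the E2F and DP partners) and the LIN-54 subunit contact DNA at promoters, and the complex represses its target genes. In L1 larvae it is best known for keeping germline genes silent in somatic cells and for restraining cell cycle genes. Worm autosomes have a gene-rich centre with little recombination, flanked by arms with more repeats, and chromosome IV also holds the large clusters of piRNA (21U-RNA) genes. The whole animal was used, so that a peak may stand for binding in a few cells or in many. Positions below are in WormBase WS220. Genes and DNA sequence at these positions were not analysed here, because the gene table at hand belongs to another build.

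A peak's place is its rank in a list, with 1 the best: peaks were ordered by the authors' score and, where scores tie, by the authors' peak number. The sources do not state what the peak number ranks, so that strong and weak refer here to early and late places or numbers. Scores reached a ceiling of 3.94 in the combined list, and 732 of the 805 chromosome IV peaks (90.9%) sat at it, against 91.2% of the peaks on the other chromosomes, so that the order within IV comes mostly from peak numbers. Replicate 1 listed 4436 peaks on IV and replicate 2 listed 4550. Read depth is unknown, since the lists give no counts. Peaks, windows and segments of a chromosome are not replicates of the experiment, and with 2 ChIP samples an exact test of paired signs cannot go below p = 0.5. Values are therefore given side by side for the combined list and for either replicate, and no difference from other chromosomes was tested.

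The 2 strongest sites of chromosome IV lay toward its right end, and the next were spread over the chromosome. The best peak, at IV:14464080-14464401, took place 4 of the whole combined list, and the replicates listed it as peaks 3 (replicate 1) and 4 (replicate 2). The second, at IV:17249713-17249997, took place 9, with numbers 15 and 5 in replicates 1 and 2. After these came a step: the next chromosome IV site, IV:5183714-5183992, was at place 31, with numbers 53 and 20. Some of the best 10 sites on IV stood within less than 1 Mb in the right part of the chromosome. They were IV:12371918-12372196 (place 66), IV:12559051-12559334 (place 35), IV:12724676-12724946 (place 49) and IV:13240498-13240794 (place 63). The other members of the best 10 on IV were IV:5731650-5731936 (place 45), IV:6206436-6206721 (place 47) and IV:2676335-2676606 (place 48). Of these 10 sites 6 lay in the right one of 3 equal segments of the chromosome, 3 in the left and 1 in the middle. This split depends on the cut at 10. Just behind it, the middle segment also held IV:6415183-6415472 (place 67) and IV:6321728-6321995 (place 71), both close to IV:6206436-6206721.

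Both replicates placed the best 10 sites near the head of their lists, but not in the same order. By ratio, the peak numbers closest to each other, 55 in replicate 1 and 47 in replicate 2, belonged to IV:6206436-6206721. Those farthest apart, 29 in replicate 1 and 106 in replicate 2, belonged to IV:13240498-13240794. Positions coincided closely, since the midpoints of replicate 1 lay within 21 bp of the combined midpoint at each of the 10 sites and those of replicate 2 within 11.5 bp. All 10 were narrower than the standard width of the list, at 271 to 322 bp against 324 bp.

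Chromosome IV was bound at close to the mean density of the other chromosomes. The combined list held 46.0 peaks per Mb on IV and 48.2 per Mb on the other nuclear chromosomes together, a ratio of 0.95. The best 4794 peaks of replicate 1 gave 43.4 and 48.4 per Mb, a ratio of 0.90, and those of replicate 2 gave 45.3 and 48.1, a ratio of 0.94. IV came out slightly below the rest in both replicates, by an amount of the same order as the difference between the replicate ratios. Among single chromosomes its combined density lay between that of II (49.3 per Mb) and that of X (37.5). Chromosomes I and III were denser, with 63.2 and 67.3 per Mb, and V was sparser, with 33.1.

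**Figure D1:**
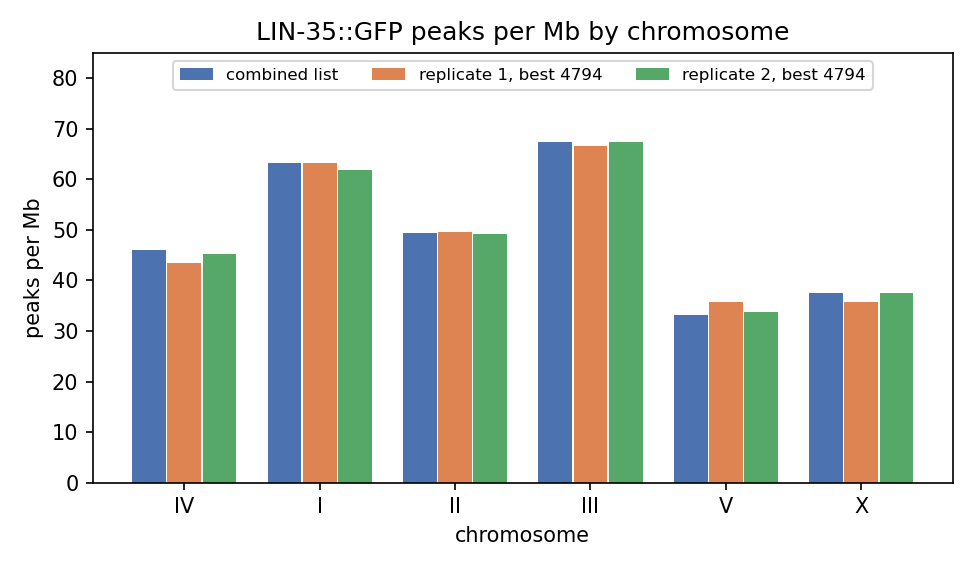
Peaks per Mb (vertical axis) on chromosome IV and on each other nuclear chromosome, in the combined list and in the best 4794 peaks of either replicate (bars). The 3 bars of IV stand at 46.0, 43.4 and 45.3 peaks per Mb, close to those of II and between the dense chromosomes I and III and the sparse V and X.

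The chromosome was divided into 3 segments of equal length. The left and middle segments were similar and the right segment was sparser. The segments, each of 5.83 Mb, ran to positions 5830411, 11660823 and 17491235. The left segment held 288 combined peaks (49.4 per Mb), the middle segment 313 (53.7) and the right segment 204 (35). The best 4794 peaks of replicate 1 gave 47.3, 49.4 and 33.4 per Mb from left to right, and those of replicate 2 gave 47.9, 54.4 and 33.6. The right segment thus had 0.68 times the mean density of the other 2 segments in the combined list, 0.69 times in replicate 1 and 0.66 times in replicate 2, and the spread between replicates was far smaller than the deficit.

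Other chromosomes were uneven too. The same ratio of the right segment to the other segments was 0.61 on V, 0.77 on I, 0.98 on III, 1.09 on X and 1.16 on II in the combined list, so that V had a lower value than IV. The middle segment of IV had 1.27 times the mean density of its outer segments, whereas the other autosomes ranged from 1.40 on I to 1.64 on V and X was at 0.96. On IV the left segment was close to the middle one, and most of the contrast came from the right.

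**Figure D2:**
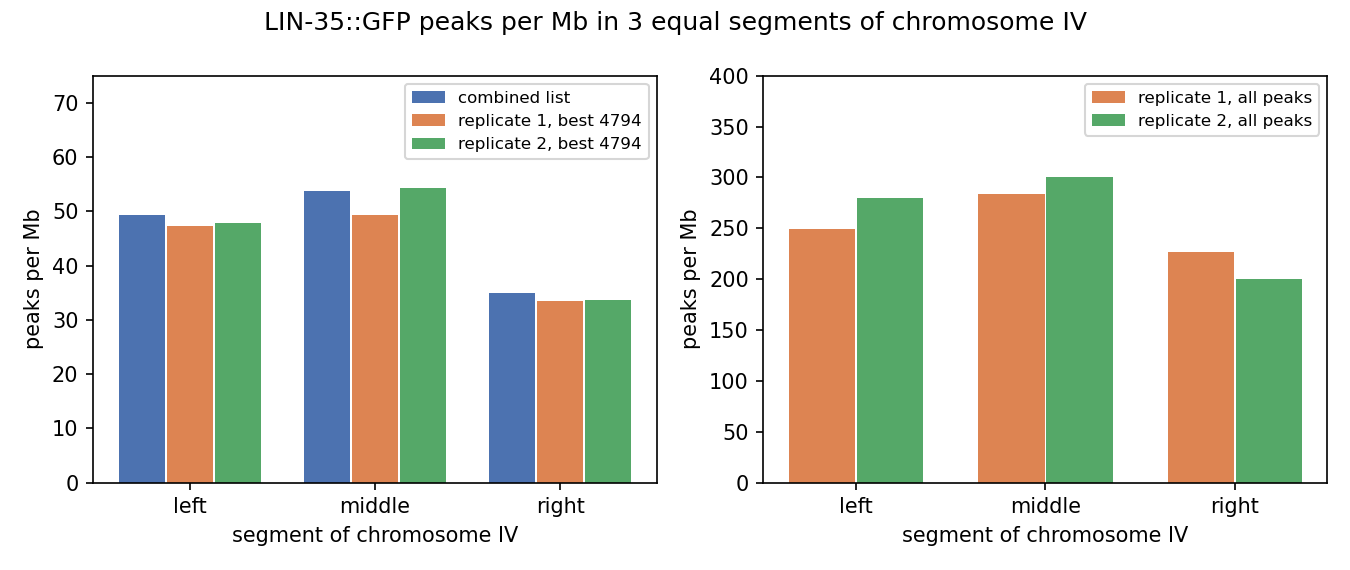
Peaks per Mb (vertical axes) in the left, middle and right segment of chromosome IV, for the combined list and the best 4794 peaks of either replicate (left panel) and for all peaks of either replicate (right panel). The right segment is lowest in every list, at 35 peaks per Mb in the combined list, and the whole list of replicate 1 has the shallowest step.

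When all replicate peaks were counted, weak ones included, the replicates differed over the right segment. Replicate 1 had 250 peaks per Mb in the left segment, 284 in the middle and 227 in the right, a ratio of the right to the other segments of 0.85. Replicate 2 had 279, 301 and 200 per Mb, a ratio of 0.69. The weak peaks of replicate 1 therefore filled the right segment more evenly than those of replicate 2. Only in the right segment did replicate 1 list more peaks than replicate 2, with 1324 against 1168.

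The count of combined peaks in whole windows of 1 Mb averaged 45.9 ± 12 on IV (SD over 17 windows). The fullest window, 11 to 12 Mb, held 63 peaks, and it was followed by 7 to 8 Mb with 60, 8 to 9 Mb with 59 and 4 to 5 Mb with 58. From 0 to 13 Mb every window held at least 44. From there on no whole window reached 35: there were 32 peaks at 13 to 14 Mb, 34 at 14 to 15 Mb, 20 at 15 to 16 Mb and 27 at 16 to 17 Mb. The last part of the chromosome, from 17 Mb to its end, was dense again, with 24 peaks in 0.491 Mb (48.9 per Mb).

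The emptiest window, 15 to 16 Mb, was also the lowest, or tied for it, among the best peaks of either replicate. It held 21 of the best 4794 peaks of replicate 1, as did the window of 16 to 17 Mb, and 20 of those of replicate 2. All 20 combined peaks there overlapped both replicates. Their median place was 1952, better than the median of 2439 over all of IV, and 4 of them were among the best 500. The window thus had few sites, but these were not ranked lower than those elsewhere on IV. Windows on chromosome V went lower, down to 7 peaks at 17 to 18 Mb, and 4 windows of V held 20 peaks or fewer, against 1 on IV and 0 on I, II, III and X.

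**Figure D3:**
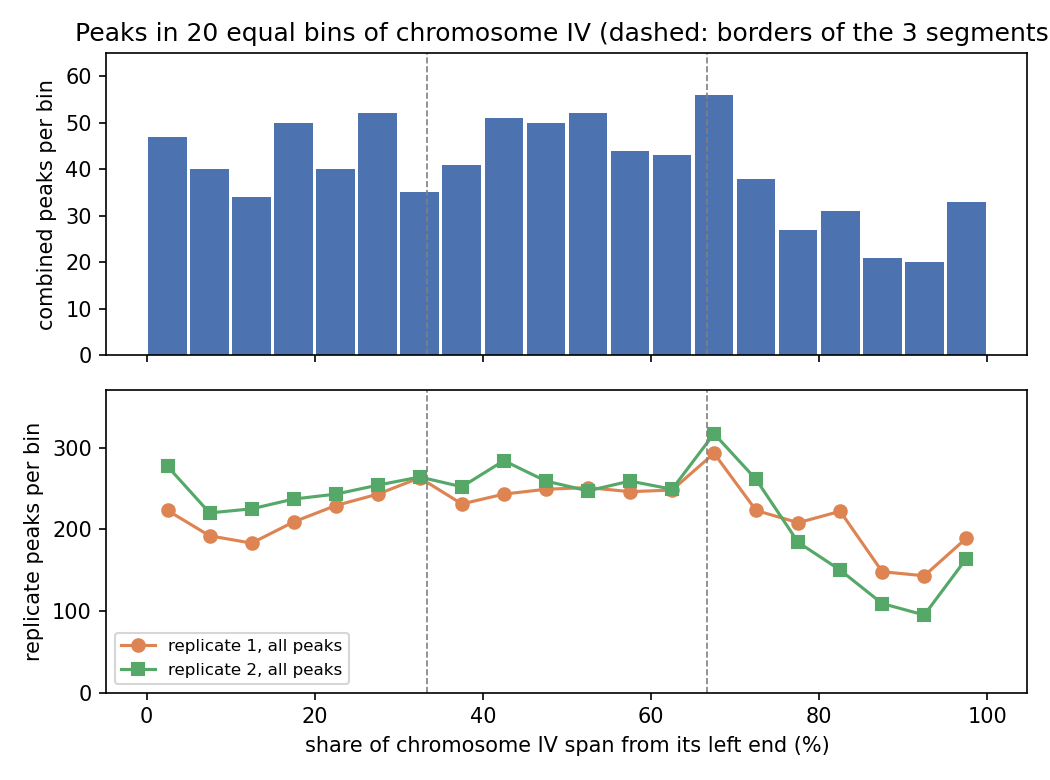
Number of peaks (vertical axes) in 20 equal bins of chromosome IV, from the left end (0%) to the right end (100%), in the combined list (upper panel) and in all peaks of replicate 1 and replicate 2 (lower panel), with dashed lines at the borders of the segments. The combined count drops to 20 peaks in the bin at 90 to 95% and recovers to 33 in the last bin, and replicate 2 lies below replicate 1 from the bin at 75 to 80% on.

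Between 14 and 17 Mb replicate 2 listed fewer peaks than replicate 1. Replicate 1 had 251, 153 and 153 peaks in these 3 windows, and replicate 2 had 166, 112 and 106, so that replicate 2 had 0.66, 0.73 and 0.69 times as many. The median of this ratio over the 17 windows of IV was 1.05, and the highest was 1.25, at 1 to 2 Mb, where replicate 1 had 234 peaks and replicate 2 had 293. No window of I, III or X had a ratio under 0.75, while II had 1 such window and V had 2, a limit chosen after the values were seen. From 15 to 17 Mb 26.1% of replicate 1 peaks overlapped a replicate 2 peak, and 37.6% of replicate 2 peaks overlapped a replicate 1 peak. To the left of 13 Mb these shares were 43.0% and 39.9%. The overlapping peaks numbered 80 of 306 in replicate 1 and 82 of 218 in replicate 2 from 15 to 17 Mb. Peaks without a partner stood at 113 per Mb in replicate 1 and 68 per Mb in replicate 2 there, against 153 and 176 per Mb to the left of 13 Mb, so that both replicates listed fewer of them.

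In the combined list the sparseness of the right segment lay largely in long empty stretches, and its median distance between sites was that of the other segments. From one midpoint to the next the median distance was 11712 bp in the left segment, 11795 bp in the middle and 11698 bp in the right. Within the right segment it varied, with 15514 bp at 13 to 15 Mb, 8756 bp at 15 to 17 Mb and 5506 bp beyond 17 Mb. Distances of 100 kb or more numbered 7 in the left segment, 3 in the middle and 13 in the right, where they added up to 2.05 Mb (35.2% of that segment). With these empty stretches taken out of the length, the density was 59.0 peaks per Mb in the left segment, 57.5 in the middle and 54.0 in the right. Over all of IV 23 such distances covered 19.4% of the span, against 16.7% on the other chromosomes together, where the share ran between 2.51% on III and 34.0% on V. The direction turned in the replicates: distances of 100 kb or more were 2.86% of those on IV and 2.21% of those elsewhere in the combined list, but 2.24% and 2.50% among the best peaks of replicate 1 and 2.28% and 2.34% among those of replicate 2.

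The longest empty stretch ran for 275 kb between IV:15107222-15107545 (place 4114) and IV:15382554-15382877 (place 2821). The replicates listed 39 peaks (replicate 1) and 11 peaks (replicate 2) inside it, and 0 of them overlapped between the replicates. The best of the replicate 1 peaks inside had number 4210 and the best of replicate 2 had number 16763. The next ran for 229 kb between IV:15701986-15702309 and IV:15931225-15931548, with 28 replicate 1 peaks and 17 replicate 2 peaks inside, of which 3 and 4 overlapped the other replicate. The next after it ran for 201 kb between IV:16180819-16181142 and IV:16382240-16382563, with 32 and 8 inside, of which 1 and 1 were shared. Few shared peaks inside are partly set by the choice of stretches. They hold no combined site, and most combined sites are found by both replicates. Over all of IV, shared peaks left out of the combined list made up 22.7% of the replicate 1 list and 22.3% of the replicate 2 list. The base of these shares includes peaks at combined sites.

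The fourth empty stretch, of 200.4 kb between IV:4880726-4881049 and IV:5081156-5081479, lay in the left segment, and the fifth, of 178 kb between IV:13521766-13522089 and IV:13699339-13699662, in the right. They held 27 and 32 replicate 1 peaks and 20 and 22 replicate 2 peaks. In the fifth, 9 of the replicate 1 peaks were shared, so that an empty stretch of the combined list was not always empty of sites found by both replicates.

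A minority of neighbouring sites were close together. On IV 70 of 804 neighbour distances (8.71%) were 1 kb or less, against 6.63% of 3984 on the other chromosomes, and single chromosomes ran from 4.82% on X to 8.41% on III. The best 4794 peaks of replicate 1 gave 8.58% on IV and 6.80% elsewhere, and those of replicate 2 gave 8.60% and 6.54%. The pairs involved 131 of the 805 peaks, with 24 pairs in the left segment, 32 in the middle and 14 in the right. The median difference in place between members of a pair was 1578, and no such value was taken for sites farther apart. Of the 70 pairs 12 had a member among the best 500 peaks, and 1 had both. Of all chromosome IV peaks 11.3% were among the best 500. How many pairs of unrelated peaks would have such a member was not worked out, so these counts do not set pairs apart.

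Some of the closest pairs shared a replicate peak, though they were not always a single peak there. At the closest pair, named below, each entry overlapped 2 peaks of replicate 1. In 11 of the 70 pairs both combined entries overlapped the same peak of a replicate, and 10 pairs overlapped each other. The closest, IV:4660417-4660578 and IV:4660623-4660718, had midpoints 173 bp apart and took places 950 and 2337, although the best partner of both was peak 821 of replicate 1 and peak 1028 of replicate 2. The next closest were IV:992064-992280 with IV:992201-992524, 191 bp apart at places 363 and 2934, and IV:8015705-8015884 with IV:8015832-8016155, 199 bp apart at places 1156 and 1499. The lowest-placed entry of the chromosome, IV:1953270-1953593 at place 4784, also shared replicate peaks with its neighbour. It overlapped the peak at IV:1953157-1953300, place 815, by 31 bp, and its best partners were peaks 756 and 871 of replicates 1 and 2. With pairs that shared a replicate peak counted once, 7.44% of the distances on IV and 5.30% of those elsewhere were 1 kb or less, with 7.42% on III.

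Runs of sites, in which each midpoint lay within 5 kb of the next, held 3 or more peaks in 49 places on IV, with 181 peaks in all. The 2 longest runs had 8 peaks each, and both were in the left segment. One spanned 16.1 kb at IV:4019004-4035144, with places from 1122 to 4567, and the other 16.8 kb at IV:4390532-4407329, with places from 419 to 4599. Neither run rested on strong sites alone, since the first had 0 and the second 1 of the best 500 peaks. The longest run of the right segment had 6 peaks, at IV:16489949-16502188, and it directly preceded an empty stretch of 154 kb. Sites without a neighbour within 5 kb numbered 372.

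Chromosome IV held a nearly even share of the list from its head to its tail. It took 15 of the best 100 combined peaks (15%, Wilson 95% interval 9.31 to 23.3%), 91 of the best 500 (18.2%, 15.1 to 21.8%) and 171 of the best 1000 (17.1%, 14.9 to 19.6%), beside 16.8% of the whole list. These intervals cover counting error only. The replicates alone gave 89 (replicate 1) and 87 (replicate 2) chromosome IV peaks among their best 500. Across 10 equal bins of the combined list the share lay between 15% and 19.8%. The median place was 2439 on IV and 2383 on the other chromosomes. X had the latest median place of the 6 chromosomes, 2993, and 8 of the best 500, whereas II had 93 of the best 500 from 753 peaks. Among the autosomes IV had the latest median place, since the others ran from 2156 on I to 2380 on V. IV also had the fewest of the best 100, against 19 to 25 on each other autosome. Of its own peaks 21.2% were among the best 1000, against 22.3% on V to 25.5% on III. For the best 500 this share was 11.3% on IV, slightly above the shares of I and V.

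Within IV the segments differed in how their peaks were ranked. The best 100 of the whole list had 5 members in the left segment of IV, 4 in the middle and 6 in the right. The best 500 had 38, 28 and 25, and the best 1000 had 69, 65 and 37. As shares of their own segment, 13.2%, 8.95% and 12.3% of the peaks were among the best 500 and 24.0%, 20.8% and 18.1% among the best 1000. The middle segment, with most peaks, had the smallest share of very strong ones, and the right segment combined a few of the strongest sites with a later median place (2692, against 2345 in the left and 2389 in the middle). Replicate 1 alone placed 39, 27 and 23 peaks of the 3 segments among its best 500, and replicate 2 placed 36, 27 and 24.

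The width of a peak went with its place. Among chromosome IV peaks in the first of 10 equal bins of the list 1.14% had the standard width of 324 bp, and their median width was 242 bp. The median was 176 bp in bin 2 and 145 bp in bin 3, and from bin 4 on it was 324 bp. The median width was therefore smallest in bins 2 and 3, behind the very best peaks. The 2 narrowest peaks had 81 bp, at IV:11549850-11549930 (place 1103) and IV:15029002-15029082 (place 1626). No peak was wider than 324 bp, which 574 of the 805 peaks had. Of the peaks at this greatest width, the best placed were IV:3050532-3050855 (place 352), IV:16491535-16491858 (place 802) and IV:11593419-11593742 (place 970).

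Most chromosome IV sites of the combined list overlapped a peak in both replicates, to which the combined list belongs. Of the 805, 752 did (93.4%, Wilson 95% interval 91.5 to 94.9%), beside 94.8% over all nuclear chromosomes and 95.1% over the others. A further 50 overlapped replicate 2 alone, 2 replicate 1 alone and 1 neither. The 2 without a replicate 2 partner were IV:13272496-13272819 (place 3004) and IV:5561076-5561399 (place 4186), and the peak with no partner was IV:14594257-14594580 (place 3580). The share in both was 94.4% in the left segment, 93.9% in the middle and 91.2% in the right.

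Sites that lacked a replicate 1 partner came from the later part of the list. There were 51 of them, the best was at place 1962 (IV:682906-683229, peak 1425 of replicate 2), and their median place was 3828. The next 4 by place were IV:9335818-9336141 (place 2092), IV:16388317-16388640 (2281), IV:9341611-9341934 (2550) and IV:13826321-13826644 (2617). A pair of these, at 9335818 and 9341611, stood 5793 bp apart. All 51 had the standard width, as did 93.1% to 100% of all chromosome IV peaks in each of bins 5 to 10 of the list. In bins 1 to 4 of the list 100% of chromosome IV peaks overlapped both replicates. In bin 8 85% did on IV and 92.0% elsewhere, and in bin 10 81.7% on IV and 81.4% elsewhere, so that the difference from the other chromosomes together lay in bins 5 to 8. Among single chromosomes X had a lower share than IV over the whole list, 92.2%. The other autosomes all had a higher share than IV, from 95.5% on V to 95.9% on III.

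**Figure D4:**
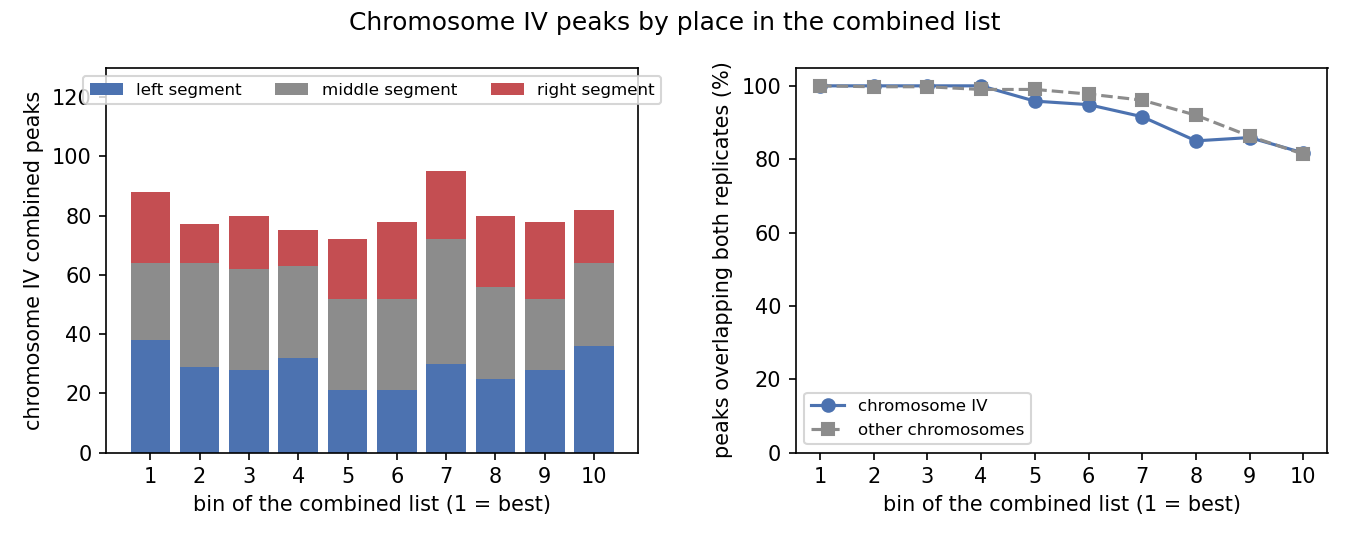
Chromosome IV combined peaks in 10 equal bins of the combined list (horizontal axes, bin 1 is the best): their number by segment of the chromosome (left panel) and the percentage that overlaps both replicates, with the other chromosomes for comparison (right panel). The number stays between 72 and 95 in every bin, and the percentage goes down along the list to 81.7% on IV and 81.4% elsewhere in bin 10, with the widest gap in bin 8 (85% on IV and 92.0% elsewhere).

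Where both replicates had a single partner, at 659 chromosome IV sites, their midpoints lay a median of 20 bp apart, and 77.5% of them lay within 50 bp. On the other chromosomes the median was 23 bp. Over all chromosome IV sites with a partner in both replicates, several partners included, the median distance was shortest at strong sites. It was 7.25 bp in bin 1 of the list and 53 bp in bin 10. Over all chromosome IV sites with a partner in the replicate concerned, the combined position followed replicate 2 more closely than replicate 1. Median distances from the combined midpoint were 5 bp for replicate 2 and 17 bp for replicate 1.

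The peak numbers of the replicates at these 659 sites went together, with Spearman's rho of 0.79. The other chromosomes together gave 0.79, and singly 0.59 on X, 0.79 on II, 0.81 on V, 0.82 on I and 0.84 on III. These are correlations across peaks of lists that share the selection into the combined list, and they are given as a description. By segment of IV rho was 0.84 in the left, 0.76 in the middle and 0.75 in the right. The numbers lay within 2-fold of each other at 520 sites (78.9%). The 91 chromosome IV peaks among the best 500 had numbers no later than 685 in replicate 1 and 554 in replicate 2.

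Replicate 1 had the better number at 280 of these sites and replicate 2 at 379. Numbers later than 4794, the length of the combined list, occurred at 129 sites in replicate 1 and at 62 in replicate 2. The far tail was one-sided. At 38 of the 659 sites the replicate 1 number was over 10000, and at 0 the replicate 2 number was, with latest numbers of 26325 and 9743. The 3 sites with the largest difference all had late replicate 1 numbers. IV:8830624-8830947 (place 4659) was peak 26325 of replicate 1 and 3368 of replicate 2. IV:10507619-10507942 (place 3066) was peak 25485 and 2562, and IV:17380310-17380633 (place 3106) was peak 21705 and 2495. At the first and second of these the replicate 1 midpoint was 266 and 214 bp away from the combined one.

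**Figure D5:**
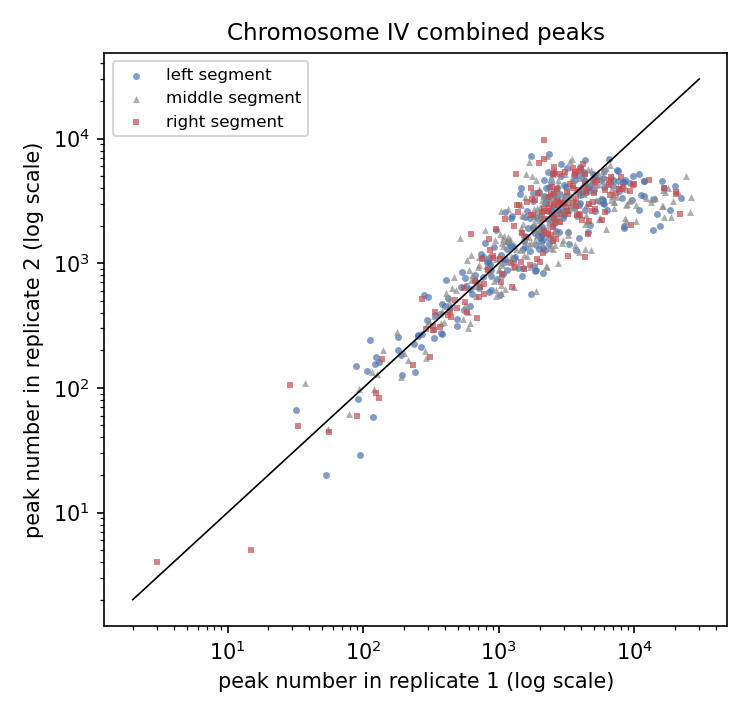
Peak number in replicate 1 (horizontal axis, log scale) against peak number in replicate 2 (vertical axis, log scale) for the 659 chromosome IV combined peaks with a single partner in either replicate, marked by segment of the chromosome, with a line where the numbers are equal. Points follow the line at the head of the lists, and a tail of late replicate 1 numbers, up to 26325, extends to the right.

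The replicate lists held many further chromosome IV sites. Of the 4436 peaks of replicate 1 on IV, 1787 (40.3%, Wilson 95% interval 38.9 to 41.7%) overlapped a replicate 2 peak, beside 41.8% over all nuclear chromosomes and 42.1% over the others. Of the 4550 of replicate 2, 1807 (39.7%, 38.3 to 41.1%) overlapped a replicate 1 peak, beside 39.4% over all nuclear chromosomes and 39.3% over the others. For replicate 1 the share was 44.1% in the left segment, 42.1% in the middle and 33.8% in the right, whereas for replicate 2 it was 40.3%, 40.2% and 38.2%. The right segment thus had the lowest share in both replicates, by a wider margin in replicate 1, where it also held more peaks than in replicate 2.

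Sharing varied far more with rank than between IV and the other chromosomes. In the first of 10 equal bins of replicate 1, 99.5% of chromosome IV peaks and 99.5% of the others overlapped replicate 2, and in the last bin 21.3% and 25.1% did. In replicate 2 the first bin gave 91.9% on IV and 92.9% elsewhere, and the last bin 18.4% and 20.8%. Shared sites left out of the combined list numbered 1009 for replicate 1 on IV, or 22.7% of its peaks there, with a median peak number of 13472 and a best of 2316. For replicate 2 they numbered 1014 (22.3%), with a median of 14313 and a best of 2995.

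The outermost combined sites of the chromosome were IV:51212-51535 (place 2045), on the left, and IV:17461384-17461590 (place 376), on the right. The right end was therefore bound close to position 17491235, the last in any list, by a peak among the best 500 with numbers 338 and 409 in replicates 1 and 2.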

How the data were processed

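LIN-35::GFP ChIP-seq peaks of 2 ChIP samples and the combined list were read from the authors' lists, whose build is WS220 per the file headers. The lists name SPP and the irreproducible discovery rate. Not given in the sources used here are the aligner, thresholds, versions, use of input and the rule behind the combined list. The authors deposited a score for each peak with no unit, and it served only to rank peaks. In replicate 2, order by score and by peak number differed (Spearman's rho of 0.66 over the first 5000 numbers), so peak numbers are printed. Where several replicate peaks overlapped a site, the lowest number was taken.

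Members and lists were chosen with earlier results of these data known. Computation used scipy 1.17.1, pandas 2.3.3, matplotlib 3.10.9 and numpy 2.4.6 under Python 3.11.15. Overlap needed 1 bp. A chromosome's span ended at the largest peak end in any list. Peaks were assigned to 3 equal segments and 1 Mb windows by midpoint. Sites named are the best 10, the extremes of position, place, width, gap, pair, run and disagreement, and those without a partner. Windows of replicate difference, shared entries in pairs and alternatives with all replicate peaks were chosen after values were seen. Depth is unknown. Procedures were tested on simulated lists. No reference sequence of WS220 was used.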

Additional observations from a re-analysis of the deposited data

How the results depend on the processing

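Of 69 alternative values, 34 stayed within the spread between replicates, the counting interval or 1.5 times a count, 35 moved further and 0 changed sides. The spread is the SD of the values from the best peaks of either replicate. Where it set the limit, the alternatives without a replicate are these same values. Replicates that agree closely then make the limit narrow, so the tally does not measure how firm the results are. A change of sides was defined only for the ratios of IV to the other chromosomes and of the right to the other segments. For all other values it could not be recorded, and the turn in the share of distances of 100 kb or more is not counted. Without replicate 1 or replicate 2, each replicate's own best peaks gave 43.4 to 45.3 peaks per Mb on IV (by peak number also 43.4 to 45.3), a ratio to other chromosomes of 0.90 to 0.94, a ratio of the right to the other segments of 0.66 to 0.69, a median neighbour distance of 11853 to 13193 bp and 8.58 to 8.60% of distances of 1 kb or less. The 2397 best-placed combined peaks gave 22.4 peaks per Mb, a right segment at 0.57 of the others, windows of 11 to 33 peaks, a median distance of 27850 bp, 4.09% of distances of 1 kb or less, 99.2% of peaks in both replicates and a rho of 0.82; a shorter list lowers the counts by construction, and for the other changes the cause was not tested. All replicate 1 peaks moved the right-segment ratio to 0.85, and all replicate 2 peaks the ratio to other chromosomes to 0.89. With 15 to 17 Mb left out the right segment stood at 0.80 of the others. With pairs on the same replicate peak counted once, 7.44% of distances were 1 kb or less. Overlap in both replicates was 87.8% (89.7% on other chromosomes) when at least 50% of the combined peak had to be covered, and 86.0% (87.0%) with midpoints within 100 bp. Place by score gave a rho of 0.63. Added after seeing the data were the alternatives with all replicate peaks, with 15 to 17 Mb left out, by peak number and with pairs counted once. No paired analysis was possible because the inputs, numbered like the ChIP samples, have no values here. Depth is unknown, so weak peaks cannot be weighed by reads.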
